A study of Caenorhabditis elegans with 12 samples.

Results

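The *gst* genes of *Caenorhabditis elegans* encode glutathione S-transferases, and the 44 genes described here are all rows of the deposited count table, of 46739 rows in total, whose WormBase name begins with *gst-*. All 44 are annotated as protein-coding. Their levels were measured by RNA-seq of whole worms at the L4 larval stage in 2 experiments. Each consisted of 3 mutant and 3 wild-type libraries. In experiment 1, *atfs-1(null)* worms, which lack the entire *atfs-1* open reading frame, were compared with N2 wild-type worms. In experiment 2, *atfs-1(et18)* worms were compared with N2 worms sequenced beside them. The *et18* allele changes an amino acid in the mitochondrial targeting sequence of ATFS-1, which impairs import of the protein into mitochondria. All worms had the N2 background and, per the labels, grew at 20 °C on OP50 bacteria, whereas the methods name HT115 bacteria for worms taken for RNA. No treatment is named for either strain. No age other than the larval stage was given. The labels do not say whether the libraries of a group came from separate cultures, while the supplement to the study calls the 3 of each group independent biological experiments.

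Glutathione S-transferases join the tripeptide glutathione to reactive, electrophilic compounds, which makes these more soluble and ready for export. They form the second phase of detoxification, after oxidation of the compound and before its removal by ABC transporters. In *C. elegans*, many *gst* genes are expressed in the intestine and hypodermis, and several respond to oxidative stress through SKN-1, the homologue of the mammalian Nrf transcription factors. ATFS-1 is the transcription factor of the mitochondrial unfolded protein response, in which genes for chaperones, proteases and detoxification enzymes are induced when import into mitochondria falls. The comparisons address how this gene family differs in expression when ATFS-1 is absent and when it is constitutively active.

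The gene family is unevenly spread over the genome. Chromosome II of WBcel235 holds 25 members, chromosome V 9, chromosome IV 4, chromosome X 3, chromosome I 2 and chromosome III 1. Neighbours separated by at most 10 kb formed 4 tandem groups with 25 members, and the other 19 members stood alone. The *gst-20* to *gst-18* group (II, 13608185 to 13630887) and the *gst-26* to *gst-35* group (II, 15163808 to 15185385) had 9 members each, all on the minus strand. The *gst-6* to *gst-9* group (II, 4879885 to 4893574) had 4 and the *gst-3*, *gst-2* and *gst-4* group (IV, 10139380 to 10143101) had 3. Members were short, with 594 to 999 exon bases in 2 to 10 exons. Reads were 50 bases long, and how reads that match several places were counted is not given in the sources used here. The split of reads between similar neighbours is therefore uncertain, and its part in the results was not tested. The exons of *gst-36* share 86 bases (11.5%) with *scav-5* and those of *gst-2* 89 bases (13.5%) with the antisense RNA *K08F4.15*, both on the opposite strand. Use of strand is not given, so reads from these stretches cannot be told apart. The exons of *gst-22* and *gst-5* share 10 and 3 bases with another gene.

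Total counts per library lay between 24090660 and 37050803. The targeted gene *atfs-1* had 0.561 to 0.803 CPM (counts scaled to library size and TMM factor) in *atfs-1(null)* and 41.3 to 49.1 CPM in its wild type. Replicate 3 of *atfs-1(null)* and replicate 2 of *atfs-1(et18)* stood apart from the other libraries of their groups, with a median absolute log2 deviation over all genes of 0.388 and 0.398. The markers of whole-worm tissues also moved in *atfs-1(null)*. Intestinal markers summed to 1275 to 1491 CPM in *atfs-1(null)* and 4180 to 5406 CPM in wild type (4 of 5 lower by edgeR), hypodermal markers to 153 to 182 against 420 to 498 CPM (3 of 4 lower), muscle markers to 3588 to 4685 against 6472 to 6609 CPM (3 of 4 lower) and neuronal markers to 61.1 to 70.5 against 110 to 132 CPM (4 of 4 lower). Germline markers summed to 1469 to 2282 CPM in *atfs-1(null)* and 357 to 687 CPM in wild type (4 of 4 higher), major sperm protein genes to 596 to 1440 against 68.8 to 166 CPM (27 of 28 higher) and vitellogenin genes to 11128 to 31287 against 696 to 2237 CPM (6 of 6 higher). In *atfs-1(et18)*, 1 of 5 intestinal markers was higher (summed 2527 to 3145 against 2371 to 2902 CPM in wild type), 2 of 4 muscle markers were lower (4706 to 5609 against 6974 to 8261 CPM) and 1 of 4 neuronal markers was lower (79.0 to 97.4 against 106 to 120.4 CPM). No hypodermal, germline, sperm or vitellogenin marker passed there, and their sums spread widely. Hypodermal markers summed to 145 to 264 CPM in *atfs-1(et18)* and 226 to 347 CPM in wild type, and germline markers to 522 to 1104 against 663 to 812 CPM. Major sperm protein genes summed to 196 to 872 against 190 to 430 CPM, and vitellogenin genes to 3296 to 21939 against 1348 to 7519 CPM. These ranges overlapped. No marker had a count of 0 over a whole group except 1 of 31 major sperm protein genes in each wild type. Of all genes tested, 35.4% were lower and 32.9% higher in *atfs-1(null)*, and 7.51% were lower and 9.42% higher in *atfs-1(et18)*. The part of these shifts in the *gst* results was not tested, and in bulk RNA fewer cells of a type and less RNA per cell cannot be told apart. The study reports slow development of both mutant strains, and a difference in stage at harvest was not tested.

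In wild type, the family was dominated by a few genes. To compare genes of different length, CPM were divided by exon length to give RPKM, CPM per kilobase of exon. The highest mean levels over the 6 wild-type libraries were those of *gst-10*, whose product conjugates the lipid peroxidation product 4-hydroxynonenal, at 254.7 ± 49.1 RPKM and of *gst-27* at 251.9 ± 56.0 RPKM (SD, n = 6). The order of these 2 genes differed between the experiments: *gst-10* had 248 ± 76.5 RPKM and *gst-27* 209 ± 21.7 RPKM in the wild type of experiment 2, while *gst-10* had 262 ± 5.11 RPKM and *gst-27* 295 ± 41.8 RPKM in that of experiment 1 (SD, n = 3). They were followed by *gst-26* at 187 ± 44.5 RPKM, *gst-13* at 153 ± 14.5 RPKM and *gst-1*, a Pi-class enzyme, at 151 ± 12.9 RPKM (SD, n = 6). Among these 5 genes, the ranges of 1 SD around the means of neighbours in the order overlapped, while that of the next gene, *gst-36* (92.0 ± 19.6 RPKM), lay below that of *gst-1*. At the lower end were *gst-25* at 0.216 ± 0.0941 RPKM and *gst-34* at 0.196 ± 0.0854 RPKM. The range from highest to lowest spanned 1298-fold, and 33 members reached 1 RPKM, 18 reached 10 RPKM and 5 reached 100 RPKM. The 5 most abundant members of each wild-type library made up 60.9% to 64.9% of all *gst* counts.

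**Figure D1:**
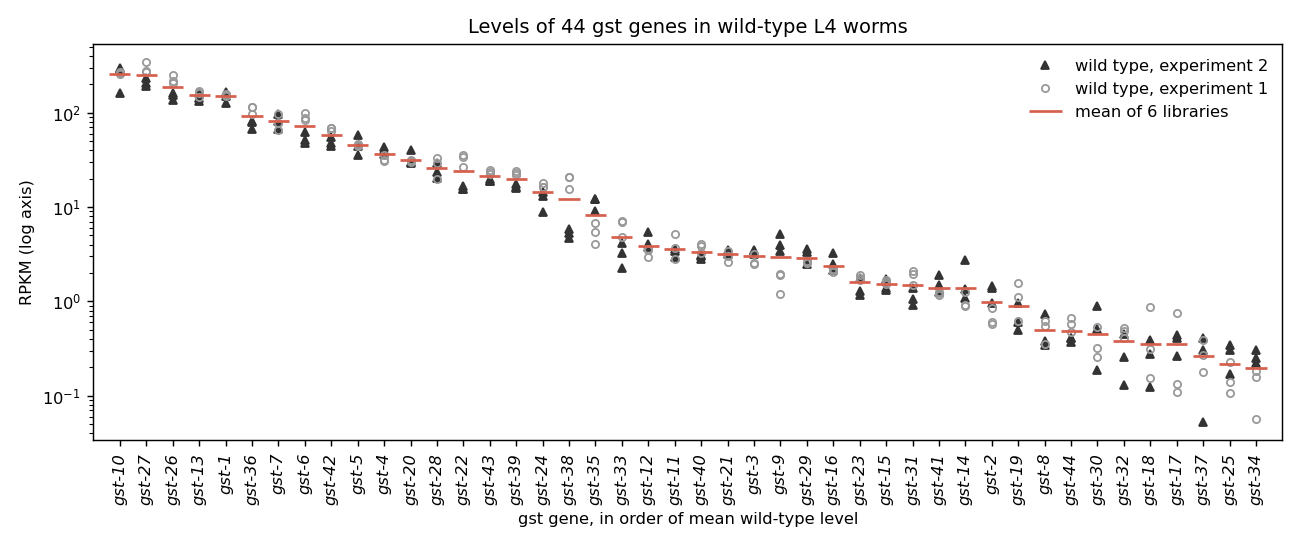
Level of each *gst* gene in RPKM on a log axis in the wild-type libraries (triangles for experiment 2, circles for experiment 1), with members ordered by their mean over the 6 libraries, which is the horizontal bar. A few genes (*gst-10*, *gst-27*, *gst-26*, *gst-13* and *gst-1*) have means above 100 RPKM, while the lowest means lie under 1 RPKM.

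The wild types of the 2 experiments were not the same for every member. Levels were higher in all 3 wild-type libraries of experiment 2 than in all 3 of experiment 1 for 6 members, lower for 14 and overlapping for 24. No share over all genes was computed beside these counts, so they do not set the family apart. TMM factors were set within each experiment. They lay between 0.896 and 0.929 in the wild type of experiment 1 and between 0.975 and 1.02 in that of experiment 2. The counts of members above and the means over 6 libraries therefore join 2 scalings. With these scalings, the mean CPM of *gst-38* in experiment 2 was 0.277 times that in experiment 1, and that of *gst-9* was 2.47 times. The labels mark the libraries of experiment 2 as another batch, so experiment and batch cannot be told apart, and these differences were not tested. Each mutant is therefore set only against its own wild type below.

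The summed level of the family was lower in *atfs-1(null)* worms. All *gst* genes together had 757 ± 78.7 CPM in *atfs-1(null)*, between 675 and 832 CPM, and 1337 ± 73.3 CPM in wild type, between 1281 and 1420 CPM (SD, n = 3). The groups did not overlap. TMM factors were 1.05 to 1.11 in *atfs-1(null)* and 0.896 to 0.929 in its wild type, so the size of this fall depends on the scaling. The 3 genes *gst-26*, *gst-27* and *gst-10* accounted for 179 to 256 CPM in *atfs-1(null)* and 560 to 639 CPM in wild type. In *atfs-1(et18)* the family sum was 1051 ± 153 CPM, between 915 and 1216 CPM, and in its wild type 1102 ± 147 CPM, between 933 and 1197 CPM (SD, n = 3). These ranges overlapped.

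Of the 39 members that passed the filter on low counts in experiment 1, 21 were lower in *atfs-1(null)* than in wild type and 2 were higher by edgeR's quasi-likelihood test at a Benjamini-Hochberg adjusted p under 0.05 over all genes. Of all 15620 genes tested, 35.4% were lower, 32.9% were higher and 68.3% changed in either direction. At an unadjusted p under 0.05, 23 members passed, beside 71.2% of all genes. The median log2 fold change was -0.71 over the 39 members and -0.04 over all genes tested, with 28 members below 0 and 11 above. Mutant and wild-type libraries did not overlap for 22 members lower and 3 higher in *atfs-1(null)*, beside 39.7% and 34.5% of all genes. When scaling used library size alone, the median of all genes became 0.21 and that of the members -0.45. With that scaling 16 members were lower and 6 higher, beside 4190 and 6244 of all 15620 genes. The 4 members added to the higher calls by that scaling were *gst-1*, *gst-7*, *gst-16* and *gst-44*.

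**Figure D2:**
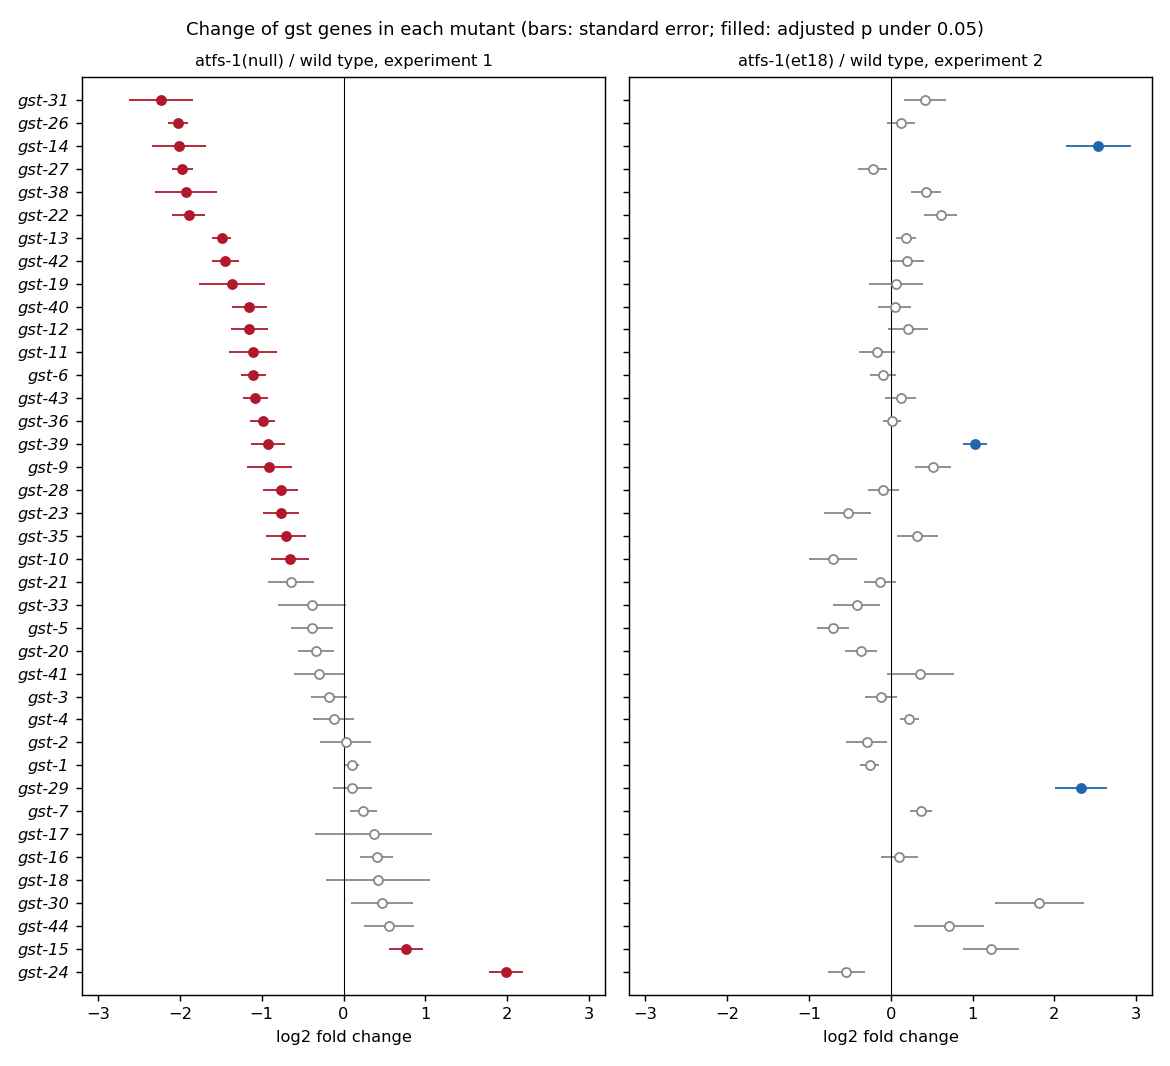
Log2 fold change of each tested *gst* gene in the *atfs-1(null)* and *atfs-1(et18)* strains, each against the wild type of its own experiment, with bars for the standard error and filled points for an adjusted p under 0.05 (edgeR). Most called members in *atfs-1(null)* lie below 0, with *gst-24* and *gst-15* above it, and the 3 called members in *atfs-1(et18)* lie above 0.

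The largest falls among members above the minimum level (average log2 CPM of 0) included the abundant neighbours *gst-26* and *gst-27*. *gst-26* (II, 15163808 to 15164584) had 43.9, 38.5 and 38.3 CPM in *atfs-1(null)*, against 156, 151 and 183 CPM in wild type. Every mutant library was far below every wild-type library. The log2 fold change was -2.02 (standard error 0.12, Benjamini-Hochberg adjusted p = 0.000177, edgeR's quasi-likelihood test). Its neighbour *gst-27* (II, 15164885 to 15165726) had 56.9, 52.4 and 58.4 CPM in *atfs-1(null)*, against 202, 199.9 and 255 CPM in wild type. The log2 fold change of *gst-27* was -1.97 (standard error 0.13, edgeR adjusted p = 0.000177), and *gst-26* and *gst-27* were at 0.246 and 0.255 times their wild-type level. *gst-13* (II, 9231497 to 9232341), which lies outside the tandem groups, had 45.9, 41.8 and 38.0 CPM in *atfs-1(null)*, against 108, 119.9 and 126 CPM in wild type. Its log2 fold change was -1.49 (standard error 0.12, edgeR adjusted p = 0.000202).

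Members on chromosomes V and X fell as well. *gst-38* (V, 15915168 to 15916079) had 6.54, 4.0 and 2.25 CPM in *atfs-1(null)*, against 17.6, 13.1 and 17.9 CPM in wild type, a log2 fold change of -1.93 (standard error 0.38, edgeR adjusted p = 0.00355). The mutant libraries of *gst-38* spread widely, and the groups still did not overlap. *gst-22* (V, 16231034 to 16232282) had 7.31, 5.35 and 5.91 CPM in *atfs-1(null)*, against 25.4, 19.0 and 24.7 CPM in wild type, a log2 fold change of -1.89 (standard error 0.20, edgeR adjusted p = 0.000345). *gst-42* (X, 11726270 to 11727897) encodes a zeta-class enzyme, maleylacetoacetate isomerase, which acts in tyrosine breakdown. It had 27.8, 25.1 and 18.6 CPM in *atfs-1(null)*, against 62.0, 66.9 and 66.2 CPM in wild type, a log2 fold change of -1.45 (standard error 0.16, edgeR adjusted p = 0.00042).

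Lower-level members followed. *gst-40* (IV, 760610 to 762342) had 1.25, 1.26 and 1.03 CPM in *atfs-1(null)*, against 2.70, 2.32 and 2.89 CPM in wild type, a log2 fold change of -1.16 (standard error 0.21, edgeR adjusted p = 0.00276). *gst-12* (II, 13616685 to 13617937) had 1.01, 1.29 and 0.975 CPM in *atfs-1(null)*, against 2.16, 2.62 and 2.55 CPM in wild type, a log2 fold change of -1.15 (standard error 0.22, edgeR adjusted p = 0.0034). The groups did not overlap for either gene. The other 13 members called lower had log2 fold changes between -2.23 and -0.66. *gst-31*, singled out after its values were seen, had the most negative one, at 0.297, 0.115 and 0.355 CPM in *atfs-1(null)* and 1.37, 0.972 and 1.27 CPM in wild type. These CPM stand for few reads, with 10, 4 and 12 counts in *atfs-1(null)* and 45, 26 and 37 in wild type. *gst-31* passed the filter of experiment 1 through its wild-type libraries, where its counts were higher.

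The call of *gst-10*, which had the highest mean over both wild types, depended on single libraries. *gst-10* (V, 2561690 to 2564708) had 155, 152 and 82.3 CPM in *atfs-1(null)*, against 205, 209 and 201 CPM in wild type. Replicate 3 of the mutant was well below the other 2, and all 3 were below wild type. The log2 fold change of *gst-10* was -0.66 (standard error 0.23, edgeR adjusted p = 0.0375), and its adjusted p was 0.0783, 0.0838 and 0.074 without wild-type replicate 1, 2 and 3. The call was also lost with library size alone (edgeR adjusted p = 0.1998), without a filter (edgeR adjusted p = 0.0617) and with all 12 libraries in one fit (edgeR adjusted p = 0.0605).

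Only *gst-24* and *gst-15* were called higher in *atfs-1(null)*, and they lie next to each other in the *gst-20* to *gst-18* group. *gst-24* (II, 13610443 to 13611342) had 38.8, 42.0 and 62.6 CPM in *atfs-1(null)*, against 11.7, 11.6 and 12.8 CPM in wild type. All mutant libraries were above all wild-type libraries by more than the spread of either group, and the log2 fold change was 1.99 (standard error 0.21, edgeR adjusted p = 0.00034). *gst-15* (II, 13611771 to 13613152) had 2.17, 1.81 and 1.80 CPM in *atfs-1(null)*, against 1.18, 1.08 and 1.14 CPM in wild type, a log2 fold change of 0.76 (standard error 0.21, edgeR adjusted p = 0.014). That call was lost without *atfs-1(null)* replicate 1 (0.70, edgeR adjusted p = 0.0562) and without wild-type replicate 1 (0.78, edgeR adjusted p = 0.0506).

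In *atfs-1(et18)* worms, 3 of the 37 members tested were higher than in wild type and none was lower, beside 9.42% of all genes higher and 7.51% lower by edgeR's quasi-likelihood test. In either direction 16.9% of all genes were called. At an unadjusted p under 0.05, 7 members were higher and 2 were lower, beside 34.2% of all genes in either direction. DESeq2 called 5 members higher and 1 lower, beside 2054 and 1674 of the 24000 genes it took in. The libraries did not overlap for 8 members higher and 1 lower in *atfs-1(et18)*, beside 22.9% and 19.6% of all genes. The median log2 fold change was 0.12 over the 37 members and 0.07 over all genes tested, and -0.03 over the members without *atfs-1(et18)* replicate 1. With the replicate number as a block, which treats same-numbered libraries as pairs, 5 members were higher and 2 lower. Of all 15639 genes, 1674 were then higher and 1528 lower.

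*gst-14* had the largest log2 fold change in *atfs-1(et18)*. This gene (WBGene00001762, II, 13614851 to 13616100), a reporter gene in studies of mitochondrial stress, had 7.20, 4.66 and 7.61 CPM in *atfs-1(et18)*, against 1.74, 0.692 and 0.864 CPM in wild type. The lowest mutant library, replicate 2, was still above the highest wild-type library, and the log2 fold change was 2.54 (standard error 0.40, edgeR adjusted p = 0.0101), or 5.81-fold. Without wild-type replicate 3 its log2 fold change was 2.39 and the call was lost (edgeR adjusted p = 0.0553).

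*gst-29* and *gst-39* stand 1290 bases apart in the *gst-26* to *gst-35* group, and both were higher in *atfs-1(et18)*. *gst-29* (II, 15168538 to 15169860) had 14.1, 6.82 and 12.1 CPM in *atfs-1(et18)*, against 2.52, 2.33 and 1.73 CPM in wild type, a log2 fold change of 2.33 (standard error 0.32, edgeR adjusted p = 0.00671). *gst-39* (II, 15171151 to 15171912) had 26.4, 20.1 and 25.6 CPM in *atfs-1(et18)*, against 12.5, 11.6 and 11.2 CPM in wild type, a log2 fold change of 1.03 (standard error 0.15, edgeR adjusted p = 0.00761). In all 3 called genes, replicate 2 was the lowest of the *atfs-1(et18)* libraries, and it was still above every wild-type library.

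Further members passed in *atfs-1(et18)* with the replicate block. *gst-15* had 2.60, 3.35 and 1.45 CPM in *atfs-1(et18)*, against 1.22, 0.984 and 0.931 CPM in wild type, and its log2 fold change was 1.23 (standard error 0.34, edgeR adjusted p = 0.0555) without the block and 1.18 (edgeR adjusted p = 0.0461) with it. *gst-30* had 1.06, 1.96 and 0.891 CPM in *atfs-1(et18)*, against 0.360, 0.620 and 0.133 CPM in wild type, with 1.82 (edgeR adjusted p = 0.0676) without the block and 1.85 (edgeR adjusted p = 0.0193) with it. Both genes were higher in each mutant library than in any wild-type library, both also passed with DESeq2 and with all 12 libraries in one fit, and *gst-15* passed without *atfs-1(et18)* replicate 3 (1.503, edgeR adjusted p = 0.0371). *gst-30* had 25, 48 and 24 counts in *atfs-1(et18)* and 13, 17 and 4 in wild type. It passed the filter of experiment 2 through its *atfs-1(et18)* libraries. Its call with the block and its lack of overlap are therefore no support of their own. The 2 members lower with the block were *gst-5*, at -0.69 (edgeR adjusted p = 0.0217; 0.0569 without the block), and *gst-10*, at -0.69 (edgeR adjusted p = 0.0472; 0.149 without the block). *gst-5* had 32.5, 25.5 and 26.7 CPM in *atfs-1(et18)*, against 58.3, 44.1 and 35.7 CPM in wild type, and *gst-10* had 160.1, 100.1 and 95.8 CPM, against 227, 229.9 and 125 CPM. The groups overlapped for *gst-10* and not for *gst-5*, which also passed with DESeq2 and with library size alone. *gst-22* had 18.4, 12.8 and 21 CPM in *atfs-1(et18)*, against 11.1, 11.95 and 11.1 CPM in wild type, and passed only without *atfs-1(et18)* replicate 2 (log2 fold change 0.79, edgeR adjusted p = 0.0044; 0.61 and 0.0861 with it).

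**Figure D3:**
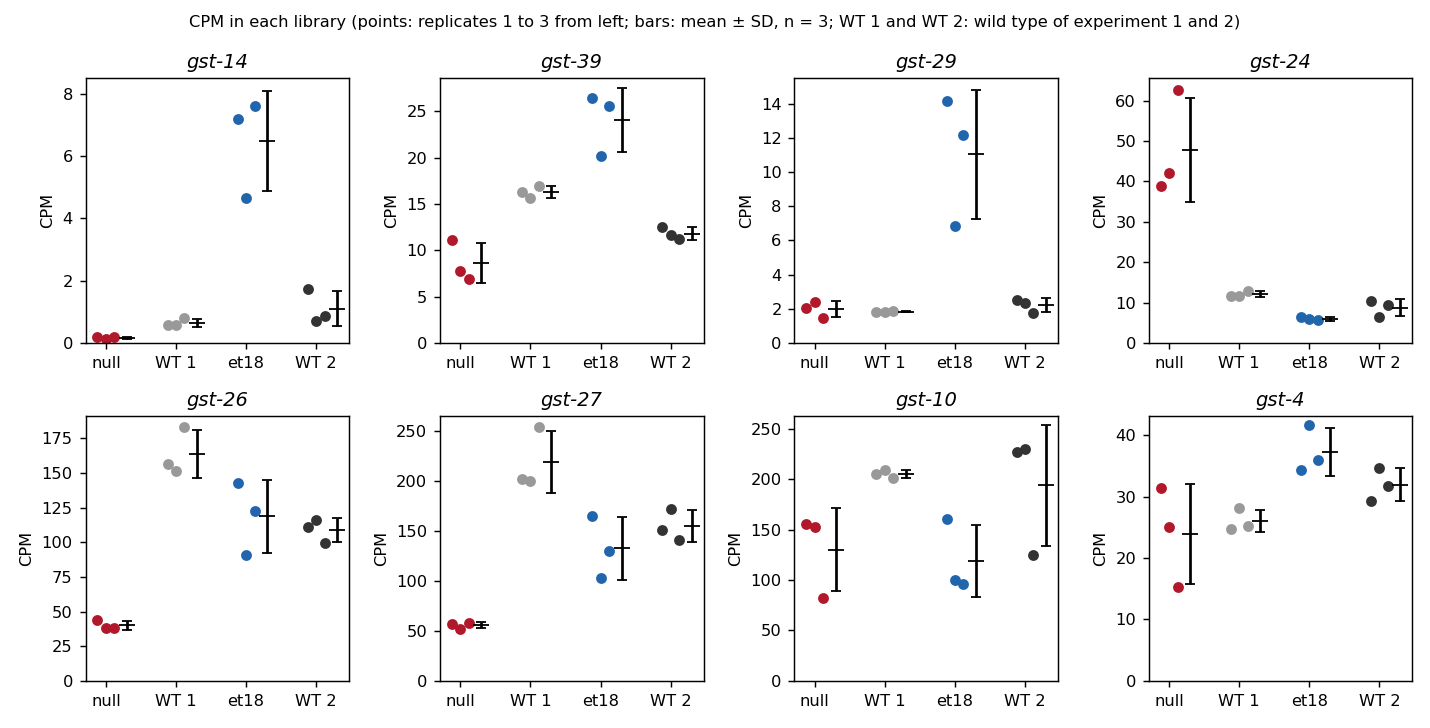
CPM of selected *gst* genes in every library, with the mutant left of the wild type of its own experiment and the mean ± SD (n = 3) drawn beside the points. *gst-26* lies between 38.3 and 43.9 CPM in *atfs-1(null)* and from 151 CPM upward in its wild type, while *gst-14* lies between 4.66 and 7.61 CPM in *atfs-1(et18)* and at or below 1.74 CPM in its wild type.

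Loss and constitutive activity of ATFS-1 were then set against each other, gene by gene. In a single fit of all 12 libraries, the change in *atfs-1(et18)* minus the change in *atfs-1(null)* passed for 18 of 41 members tested, beside 49.0% of all 16188 genes. The change in *atfs-1(et18)* was above that in *atfs-1(null)* for 17 of the 18, beside 26.1% of all genes, and below it for 1, *gst-24*, beside 22.9%. Strain and experiment cannot be told apart in this difference. Without both libraries that stood apart, 19 members passed.

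*gst-14* and *gst-39* were called in opposite directions in the 2 strains. *gst-14* had 0.178, 0.115 and 0.177 CPM in *atfs-1(null)*, against 0.577, 0.561 and 0.792 CPM in wild type, a log2 fold change of -2.01 (standard error 0.33, edgeR adjusted p = 0.00171). These CPM stand for few reads, as the mutant libraries had 4 to 6 counts. *gst-14* passed the filter of experiment 1 through its wild-type libraries (15 to 23 counts), and it did not pass the stricter filter there. The difference between its changes in the 2 strains was 4.51 on the log2 scale (standard error 0.56, edgeR adjusted p = 0.000161). *gst-39* had 11.1, 7.79 and 6.94 CPM in *atfs-1(null)*, against 16.3, 15.6 and 16.9 CPM in wild type, a log2 fold change of -0.92 (standard error 0.21, edgeR adjusted p = 0.00653), and a difference of 1.92 (standard error 0.25, edgeR adjusted p = 0.0002).

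The other differences mostly involved members lower in *atfs-1(null)* and not called in *atfs-1(et18)*. Besides the genes named here and below, 11 more passed (*gst-6*, *gst-9*, *gst-12*, *gst-22*, *gst-31*, *gst-35*, *gst-36*, *gst-38*, *gst-40*, *gst-42* and *gst-43*), with differences between 0.97 and 2.60. The *gst-35* difference was 0.99 (edgeR adjusted p = 0.0425) and lay above 0.05 in most fits that left out a library. For *gst-26* the log2 fold change in *atfs-1(et18)* was 0.13 and the difference 2.11 (edgeR adjusted p = 6.21e-05), for *gst-13* 0.19 and 1.64 (edgeR adjusted p = 5.98e-05) and for *gst-27* -0.22 and 1.71 (edgeR adjusted p = 0.000379). *gst-29* was not called in *atfs-1(null)* (0.11, edgeR adjusted p = 0.703), and its difference was 2.18 (edgeR adjusted p = 0.00148). *gst-24*, higher in *atfs-1(null)*, had 6.51, 5.84 and 5.61 CPM in *atfs-1(et18)*, against 10.4, 6.30 and 9.41 CPM in wild type, where the groups overlapped. Its difference between the strains was -2.59 (standard error 0.33, edgeR adjusted p = 0.000204). *gst-22* is a member whose wild-type levels did not overlap between the experiments. It averaged 17.4 ± 4.2 CPM in *atfs-1(et18)* and 11.4 ± 0.490 CPM in its wild type, while the wild type of experiment 1 averaged 23 ± 3.47 CPM (SD, n = 3). *gst-10* had similar log2 fold changes in the 2 strains, -0.66 for *atfs-1(null)* and -0.71 for *atfs-1(et18)*, with a difference of -0.08 (standard error 0.39).

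Neighbours within a tandem group did not all share a direction in *atfs-1(null)*, where 35.4% of all genes were lower and 32.9% higher. In the *gst-20* to *gst-18* group, all 9 members were tested there, and 2 were higher and 3 lower, with log2 fold changes between -2.01 and 1.99. *gst-24* and *gst-15*, both higher, lie directly beside *gst-14* and *gst-12*, both lower, and 1698 bases separate *gst-15* from *gst-14*. In *atfs-1(et18)*, 7 of the 9 were tested and *gst-14* was called, beside 16.9% of all genes. The *gst-26* to *gst-35* group was more uniform, with 6 of 7 tested members lower in *atfs-1(null)* and 2 of 7 higher in *atfs-1(et18)*, beside 9.42% of all genes. Its member *gst-29* was the one not called in *atfs-1(null)*. In the *gst-6* to *gst-9* group, *gst-6* and *gst-9* were lower in *atfs-1(null)* and *gst-7* was not called. The *gst-9* call (-0.91, edgeR adjusted p = 0.0208) was lost without *atfs-1(null)* replicate 1 or 2 (edgeR adjusted p = 0.0523 and 0.0801) and without wild-type replicate 1 or 3 (edgeR adjusted p = 0.0804 and 0.0653), and also with library size alone (edgeR adjusted p = 0.0645), with DESeq2 (adjusted p = 0.0771) and without a filter (edgeR adjusted p = 0.0571). None of *gst-3*, *gst-2* and *gst-4* was called in either strain. Of the members that stand alone, 10 of 17 tested were lower in *atfs-1(null)* and none was higher, and none of 17 was called in *atfs-1(et18)*.

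**Figure D4:**
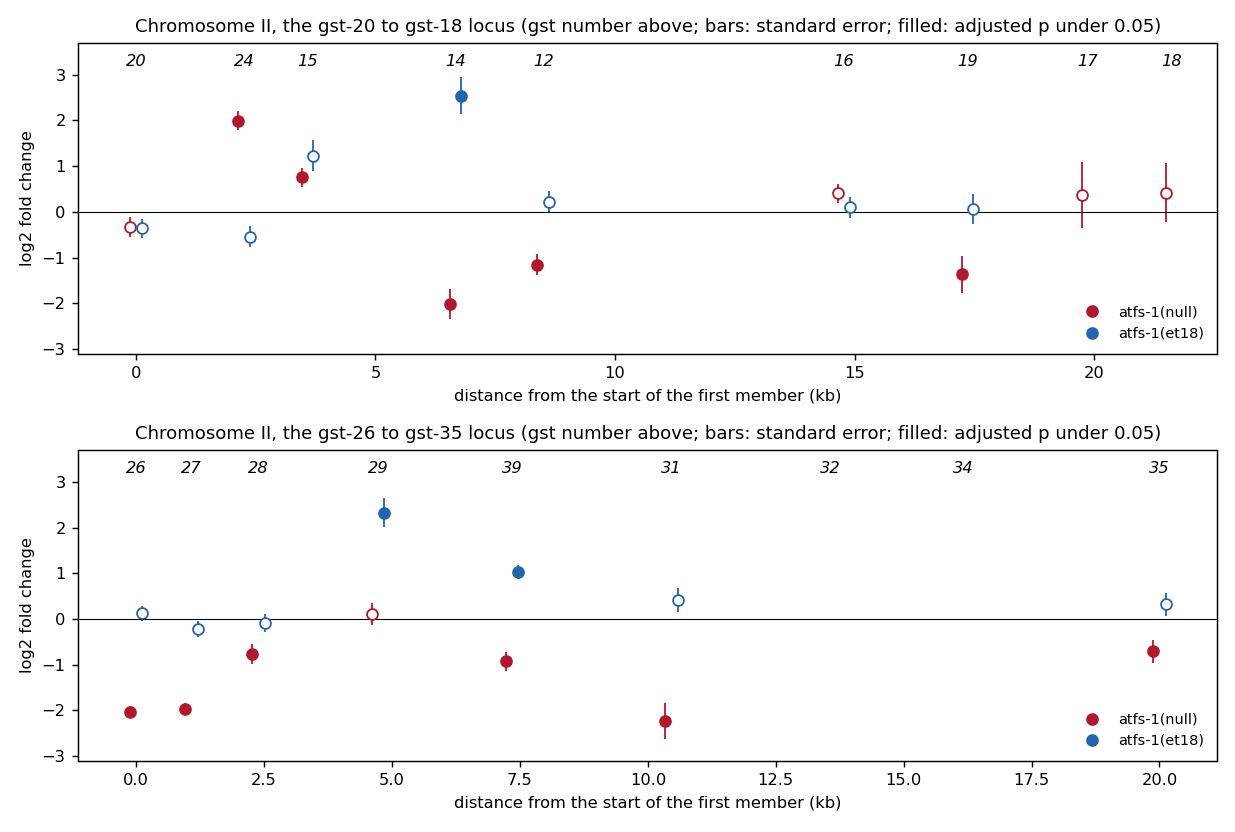
Log2 fold change of the tested members in the tandem groups of 9 genes, in each mutant strain, against their distance in kb from the start of the group, with bars for the standard error and filled points for an adjusted p under 0.05. In the *gst-20* to *gst-18* group, *gst-24* at 1.99 and *gst-14* at -2.01 in *atfs-1(null)* lie less than 5 kb apart.

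Of the 39 members tested in *atfs-1(null)*, 16 were not called, and 34 of 37 were not called in *atfs-1(et18)*. Among them was *gst-4* (IV, 10142162 to 10143101), widely used as a reporter of SKN-1 activity. It had 31.5, 25.1 and 15.2 CPM in *atfs-1(null)*, against 24.7, 28.1 and 25.3 CPM in wild type, with overlapping groups and a log2 fold change of -0.12 (standard error 0.25, edgeR adjusted p = 0.688). In *atfs-1(et18)* it had 34.3, 41.7 and 35.9 CPM, against 29.3, 34.7 and 31.8 CPM in wild type, and a log2 fold change of 0.22 (standard error 0.12, edgeR adjusted p = 0.225). The abundant *gst-1* (III, 9058904 to 9060183) had 134, 129 and 143 CPM in *atfs-1(null)*, against 130.3, 122 and 125 CPM in wild type, a log2 fold change of 0.11 (standard error 0.09, edgeR adjusted p = 0.318). In *atfs-1(et18)* the log2 fold change of *gst-1* was -0.26 (standard error 0.11, edgeR adjusted p = 0.162).

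The remaining members had too few counts to pass the filter. In experiment 1 these were *gst-25*, *gst-8*, *gst-32*, *gst-34* and *gst-37*, and in experiment 2 the same 5 with *gst-17* and *gst-18*. *gst-37* had no counts in any of the 3 *atfs-1(null)* libraries, which allows up to 3 counts in each, and 3 to 8 counts in those of wild type. *gst-8* had 0 to 6 counts in *atfs-1(null)* and 7 to 14 counts in wild type, and *gst-32* had 0 to 3 and 7 to 11 counts. *gst-34* had 6 to 9 counts in *atfs-1(null)* and 1 to 4 in wild type, and 9 to 20 counts in *atfs-1(et18)* and 4 to 6 in its wild type. In the fit of all 12 libraries, *gst-34* passed the filter through its *atfs-1(et18)* libraries, where its counts were highest. In that fit it was called higher in *atfs-1(null)* (1.33, edgeR adjusted p = 0.0347) and in *atfs-1(et18)* (1.63, edgeR adjusted p = 0.0205). The *atfs-1(et18)* call is no support of its own, as the filter chose the gene by these same libraries. The *atfs-1(null)* call rests on the few counts given above.

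Other genes of glutathione metabolism also changed, and their counts stand beside 35.4% of all genes lower and 32.9% higher in *atfs-1(null)*, and 9.42% higher and 7.51% lower in *atfs-1(et18)*. Among 4 genes of synthesis and reduction, 3 were lower in *atfs-1(null)*: *gcs-1*, which encodes the rate-limiting enzyme of glutathione synthesis (-0.31, edgeR adjusted p = 0.0174), *gss-1*, glutathione synthetase (-0.72, edgeR adjusted p = 0.000846), and *gsr-1*, glutathione reductase (-0.49, edgeR adjusted p = 0.003). The *gcs-1* call did not hold with scaling by library size alone (-0.06, edgeR adjusted p = 0.563), with DESeq2 (adjusted p = 0.206) or without a filter (edgeR adjusted p = 0.189), nor without *atfs-1(null)* replicate 1 or 2 (edgeR adjusted p = 0.0913 and 0.126) or wild-type replicate 1 (edgeR adjusted p = 0.0887). In *atfs-1(et18)* *gcs-1* was higher, with 147, 139 and 142 CPM against 108, 106 and 111 CPM in wild type (0.40, edgeR adjusted p = 0.0125), and its adjusted p lay between 0.052 and 0.075 when any library but *atfs-1(et18)* replicate 2 was left out.

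Among 8 glutathione peroxidases, which reduce peroxides with glutathione, 5 were lower in *atfs-1(null)* and none was higher. The 5 were *gpx-1* (-1.01), *gpx-2* (-0.58), *gpx-3* (-1.32), *gpx-6* (-1.81) and *gpx-7* (-1.58). In *atfs-1(et18)* 1 was higher and none was lower. That gene, *gpx-8*, had 2.85, 3.63 and 3.08 CPM in *atfs-1(et18)*, against 0.471, 0.474 and 0.332 CPM in wild type (2.89, edgeR adjusted p = 0.00118). With 10 to 17 counts in wild type, it passed the filter of experiment 2 through its *atfs-1(et18)* libraries (67 to 89 counts). Of 5 omega- and kappa-class transferases, 3 were lower in *atfs-1(null)*, namely *gsto-1* at -2.34, *gsto-2* at -1.85 and *gstk-1* at -0.66 on the log2 scale, 1 was higher, *gsto-3* at 0.77, and none was called in *atfs-1(et18)*. *gsto-2* had 4 to 8 counts in *atfs-1(null)* and passed the filter of experiment 1 through its wild-type libraries (16 to 20 counts). The *gstk-1* call was lost without *atfs-1(null)* replicate 2 (edgeR adjusted p = 0.0612), without wild-type replicate 1 or 3 (edgeR adjusted p = 0.0826 and 0.0546) and with library size alone (edgeR adjusted p = 0.147), and the *gsto-3* call without wild-type replicate 3 (edgeR adjusted p = 0.0592). Of 5 glutaredoxins, 2 were lower in *atfs-1(null)*, *glrx-10* at -0.50 and *glrx-5* at -0.55, and the *glrx-10* call was lost with library size alone (edgeR adjusted p = 0.0578). The mitochondrial *glrx-5*, which acts in iron-sulfur cluster assembly, was higher in *atfs-1(et18)*, with 51.2, 43.8 and 51.1 CPM against 26.7, 24.7 and 25.6 CPM in wild type (0.92, edgeR adjusted p = 0.00294). Of 8 MRP transporters, the ABC proteins that export conjugates, *mrp-1*, *mrp-2* and *mrp-5* were lower in *atfs-1(null)* (-1.23, -1.37 and -0.78), *mrp-7* was higher (1.71), and none was called in *atfs-1(et18)*. The *mrp-5* call was lost without wild-type replicate 2 or 3 (edgeR adjusted p = 0.0555 and 0.0522) and with library size alone (edgeR adjusted p = 0.0604). In *atfs-1(et18)*, *mrp-2* (-0.45, edgeR adjusted p = 0.0651) passed as lower with DESeq2, library size alone, the block and without mutant replicate 1. *mrp-6* passed as lower with DESeq2, and *gstk-2* as higher with DESeq2 and all 12 libraries in one fit. Without mutant replicate 2, *gpx-2*, *gpx-6*, *glrx-10* and *mrp-3* were called higher and *gsto-3*, *mrp-2*, *mrp-6* and *mrp-8* lower. Of all 15867 genes, 2727 were then higher and 1797 lower.

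SKN-1 and 6 of its regulators all passed in *atfs-1(null)*, in both directions, beside 68.3% of all genes. *skn-1* (0.36), *wdr-23*, whose product represses SKN-1 (0.42), and *brap-2* (0.66) were higher, while *elt-3*, which encodes a hypodermal GATA factor (-1.47), and the p38 kinase cascade genes *nsy-1*, *sek-1* and *pmk-1* (-0.75, -0.81 and -1.03) were lower. The *skn-1* call was kept only when *atfs-1(null)* replicate 1 was the library left out, and without *atfs-1(null)* replicate 3 its log2 fold change was 0.22 (edgeR adjusted p = 0.0634). The *wdr-23* call was lost without wild-type replicate 2 or 3 (edgeR adjusted p = 0.0707 and 0.0558). In *atfs-1(et18)* only *skn-1* passed among the 7, with 154, 172 and 169 CPM against 131, 117 and 127 CPM in wild type (0.40, edgeR adjusted p = 0.0238). Without *atfs-1(et18)* replicate 3, or wild-type replicate 1, 2 or 3, its edgeR adjusted p was 0.0975, 0.0813, 0.0828 and 0.0948, and it was 0.0558 with all 12 libraries in one fit.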

How the data were processed

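The authors deposited counts of reads per gene, not normalized, for 12 libraries of single 50-base reads. Per the labels, STAR 2.5.3a, featureCounts of Subread 1.5.2 and edgeR 3.10.0 were used on build WBcel235. How strand and multiply matching reads were handled, and which annotation release was used, is not given in the sources used here. For worms taken for RNA the authors' methods name HT115 bacteria, while the labels give OP50.

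Counts were analysed with edgeR 4.0.16 in R 4.3.3. TMM normalization, edgeR's own default filter for low counts (minimum count 10, minimum total 15), the quasi-likelihood test and adjustment by Benjamini-Hochberg at 0.05 were applied to the whole table, setting each mutant against its own wild type. A single model of all 12 libraries tested whether the 2 changes differed. CPM used library sizes scaled by the TMM factors of their own experiment, and RPKM divided CPM by the deposited exon length. A symbol was found for 43720 of 46739 rows. Fits were tested on simulated data. The limit that a count of 0 allows covers counting error only.

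Groups and replicate numbers came from the labels. Same-numbered libraries were checked for pairing by the correlation of their deviations from the group means across genes. The 3 correlations were 0.56, 0.46 and 0.11 in experiment 2. Replicate 3 of *atfs-1(et18)* correlated more with wild-type replicate 1 (0.36), so the libraries may be paired there, and this is not settled. The main tests did not use pairing, and results with the replicate block are given beside them. No pair of replicates agreed within sampling noise.

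The members and gene lists were chosen with earlier results of these data known. Genes named were, in each strain, up to 8 of the largest rises and 8 of the largest falls among called members whose libraries did not overlap and whose average log2 CPM was 0 or more, the 5 members with the highest wild-type RPKM, *gst-4* and *gst-14* as reporters, members called in opposite directions and called genes of the lists. The intestinal marker *opt-2* was not found by name. The alternatives were DESeq2 1.42.0, library size alone, other filters (CPM above 1 in at least 3 libraries, or none), robust estimation, all 12 libraries in one fit, the replicate block and leaving out each library. One alternative, leaving out both libraries that stood apart, was chosen after seeing the data. Python 3.11, numpy 2.4.6, pandas 2.3.3 and matplotlib 3.10.9 were used for the other steps. No sequences were used here.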

Additional observations from a re-analysis of the deposited data

How the results depend on the processing

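Of 972 values of single members under the alternatives, 915 kept their side of the threshold, 38 lost the call, 19 gained one and 0 values called before or after changed direction. Of the values not called, 26 changed sign, for example those of *gst-4* and *gst-17* in *atfs-1(null)* and *gst-6* in *atfs-1(et18)*. Members higher in *atfs-1(null)* numbered 2, and 6 with library size alone, beside 5134 and 6244 of all 15620 genes. Members higher in *atfs-1(et18)* numbered 3, and 5 with DESeq2, 6 with all 12 libraries in one fit (*gst-34* among them) and 5 with the replicate block. Members lower in *atfs-1(et18)* numbered 0, and 1 with library size alone, 1 with DESeq2 and 2 with the replicate block. Of all 15639 genes tested there, 1473 were higher and 1175 lower. These numbers were 1674 and 1528 with the replicate block and 1584 and 1271 with library size alone. With all 12 libraries in one fit they were 1626 and 1448 of 16188 genes. DESeq2, which took in 24000 genes and all 44 members, called 2054 higher and 1674 lower. The cause was not tested. When single libraries were left out, 1 to 3 members were higher and 16 to 21 lower in *atfs-1(null)*, 2 to 4 were higher and 0 lower in *atfs-1(et18)*, and 17 to 19 differed between the strains. Over all genes, 4248 to 5729 were higher and 4529 to 5921 lower in *atfs-1(null)* in these fits. In *atfs-1(et18)*, 525 to 2727 genes were higher and 279 to 1797 lower. The lower count of 1 member for *atfs-1(null)* came without *atfs-1(null)* replicate 1 and without wild-type replicate 1.

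In experiment 1, same-numbered libraries correlated at -0.04, 0.48 and 0.28, which does not settle whether they were paired. With the replicate block, 2 members were higher and 21 lower in *atfs-1(null)*, beside 5382 and 5621 of all 15620 genes, and 21 differed between the strains. The members with the least stable calls in *atfs-1(null)* were *gst-35*, *gst-9*, *gst-23*, *gst-10* and *gst-19*. With 3 libraries a group and 24090660 to 37050803 counts per library, members with few counts did not pass the filter: 5 in experiment 1 and 7 in experiment 2.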
